A study of Mus musculus with 8 samples.

Results

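The interferon regulatory factor genes Irf1, Irf2, Irf3, Irf4, Irf5, Irf7, Irf8 and Irf9 were followed in the RNA-Seq of mouse bone marrow-derived macrophages (BMDMs) in which the long noncoding RNA MAARS was knocked down. They were chosen by symbol, as the 8 of 49315 genes in the count table whose Ensembl identifiers carry these names in GENCODE M21, and all 8 were among the 13051 genes that passed the filter on low counts. BMDMs of C57BL/6 mice, grown from femur and tibia marrow with macrophage colony-stimulating factor, were transfected by lipofection with a gapmeR, a short antisense oligonucleotide through which RNase H cuts the RNA it pairs with. The control group received negative control #1 (4 libraries, replicates 2, 5, 6 and 7) and the MAARS group a gapmeR designed against MAARS (4 libraries, replicates 9, 11, 13 and 15), both at 25 nM by the sample labels. All libraries therefore came from transfected cells, and a group of cells without a gapmeR was not analysed here. Nothing in the labels says that the libraries of a group came from separate animals or cultures, so p-values measure the spread between these libraries, which may be technical.

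Interferon regulatory factors are transcription factors that share an N-terminal DNA-binding domain and bind promoters of interferon and interferon-stimulated genes. Irf3, Irf5 and Irf7 are activated by phosphorylation downstream of Toll-like receptors and nucleic acid sensors, Irf9 is part of the ISGF3 complex that answers type I interferon, and Irf1 is induced by interferon-gamma. Irf2 competes with Irf1 at shared sites, while Irf4 and Irf8 bind DNA together with the Ets factor PU.1 and steer myeloid differentiation and macrophage polarization.

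Promoter windows of the members were searched for letters through which interferon signals are known to act. Sequence upstream of the start of Irf7, the member with the greatest change, is shown beside that of the 3 members whose windows held a match to any of 3 motifs searched on both strands. These were the core of the interferon-stimulated response element (GAAANNGAA), the interferon-gamma activated site (TTCNNNGAA) and a composite element for an Ets factor with an interferon regulatory factor (GGAANNGAA). The sequences are from RefSeq (GRCm38.p6), 5′ to 3′ on the strand of the gene, 250 bases up to the base before the start, and capitals mark every match. They lie at chr7:141266425-141266674 on the minus strand for Irf7, and on the plus strand at chr11:53769764-53770013 for Irf1, chr8:46739495-46739744 for Irf2 and chr8:120736108-120736357 for Irf8.
Irf7: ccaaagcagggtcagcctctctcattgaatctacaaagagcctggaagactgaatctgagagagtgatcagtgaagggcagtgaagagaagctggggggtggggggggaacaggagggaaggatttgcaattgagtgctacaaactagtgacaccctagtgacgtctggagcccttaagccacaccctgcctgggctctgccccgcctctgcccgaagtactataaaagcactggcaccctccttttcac
Irf1: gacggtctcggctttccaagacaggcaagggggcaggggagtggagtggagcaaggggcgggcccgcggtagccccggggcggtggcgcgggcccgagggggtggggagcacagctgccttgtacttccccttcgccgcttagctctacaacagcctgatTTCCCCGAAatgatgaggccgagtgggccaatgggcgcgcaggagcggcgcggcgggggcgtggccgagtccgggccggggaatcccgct
Irf2: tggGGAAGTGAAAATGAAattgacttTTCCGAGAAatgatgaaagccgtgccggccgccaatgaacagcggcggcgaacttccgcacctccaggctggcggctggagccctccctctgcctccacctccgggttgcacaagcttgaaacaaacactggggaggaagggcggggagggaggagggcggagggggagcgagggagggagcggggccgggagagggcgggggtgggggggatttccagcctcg
Irf8: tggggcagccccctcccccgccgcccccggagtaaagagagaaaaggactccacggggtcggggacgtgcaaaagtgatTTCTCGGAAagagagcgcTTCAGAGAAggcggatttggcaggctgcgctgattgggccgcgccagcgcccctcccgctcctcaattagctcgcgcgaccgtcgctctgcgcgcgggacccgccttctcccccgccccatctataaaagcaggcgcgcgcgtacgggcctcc

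Irf1 held one interferon-gamma activated site, TTCCCCGAA, beginning 90 bases before the start. Irf2 held GGAAGTGAA at 247 bases and GAAAATGAA at 241 bases before the start, which overlap each other, and TTCCGAGAA at 224 bases. Irf8 held TTCTCGGAA and TTCAGAGAA at 171 and 153 bases. The 11 windows listed for the 8 members also reach 50 bases past the start, and the other 8 windows, those of Irf3, Irf4, Irf5, Irf7 and Irf9 and the second windows of Irf1 and Irf8, held none of these letters. Among all 32851 promoter windows, 8.56% held the response element core, 8.30% the interferon-gamma activated site and 8.24% the composite element. The core and the composite element were each in 1 of the 11 member windows, a share near that of all windows, and the interferon-gamma activated site was in 3 of the 11, which was not tested. A match describes letters and not a bound site, and no match says only that these letters are not in this window.

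Libraries held 19287279 to 20567123 counts in the control group and 20839671 to 24541205 in the MAARS group, so every MAARS gapmeR library was deeper. MAARS itself, the lincRNA gene Gm14461 (ENSMUSG00000054510, chr2:78237547-78302230, plus strand), had 238, 296, 240 and 249 counts in the control libraries, named in the order above, and 163, 161, 159 and 135 in the MAARS gapmeR libraries. In CPM, counts scaled to library size with TMM factors, it fell from 13.1 ± 1.36 to 6.82 ± 0.844 (SD, n = 4), a log2 fold change of -0.95 (SE 0.112, adjusted p = 5.8e-05, edgeR). The labels of both groups thus matched the level of the targeted RNA. The summed level of 8 macrophage markers was 13836 to 17118 CPM in the control and 17011 to 20241 CPM in the MAARS group. Most of this sum was Lyz2, which rose from 9402 ± 1240 to 13170 ± 1172 CPM (SD, n = 4). Of the 8 markers, 5 (62.5%) passed the test as higher, against 21.3% of all genes tested. Another 2 (25%) passed as lower, against 24.0%: Cd68, from 2162 to 1710 CPM, and Fcgr1, from 808 to 190 CPM. Markers of other cells ranged widely in level. The summed level was at most 2.49 CPM for conventional dendritic cells and 2.46 CPM for B cells and 154 CPM for neutrophils and progenitors. The 6 T and NK cell markers summed to 65.9 to 85.5 CPM in the control and 40.6 to 51.4 CPM in the MAARS group. Nearly all of this was Cd4, at 65.8 to 85.5 and 40.5 to 51.3 CPM. Cd4 fell and was the sole marker of the 6 that passed the filter. Cd3g had 0 counts throughout, and Cd3d, Cd3e, Cd8a and Ncr1 had at most 2 counts in a library. The 4 plasmacytoid dendritic cell markers summed to 64.7 to 91.6 and 98.0 to 114 CPM, of which Tcf4 rose and was the sole marker that passed the filter. The 5 fibroblast markers summed to 457 to 1043 and 716 to 1230 CPM and 0 of them passed the test, and the 4 endothelial markers summed to 17.1 to 21.8 and 7.63 to 8.71 CPM, of which Kdr fell. The part of depth and of these other cells in the results below was not tested. In such bulk samples, fewer cells of a type and less RNA per cell cannot be told apart.

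Of the 8 members, 6 passed the test between the groups, where 45.4% of all genes tested did. Irf1, Irf5, Irf7, Irf8 and Irf9 fell, against 24.0% of all genes, and Irf3 rose, against 21.3%. Irf2 and Irf4 did not pass. The values of 5 members did not overlap between the groups, 4 of them lower with MAARS gapmeR, where 42.1% of all genes did not overlap and 22.8% were lower without overlap. The median log2 fold change was -0.50 for the members and 0.01 for all genes tested. As a description, Irf7 changed by far the most, Irf1, Irf5 and Irf9 by similar amounts, and Irf2, Irf3 and Irf8 by little.

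**Figure D1:**
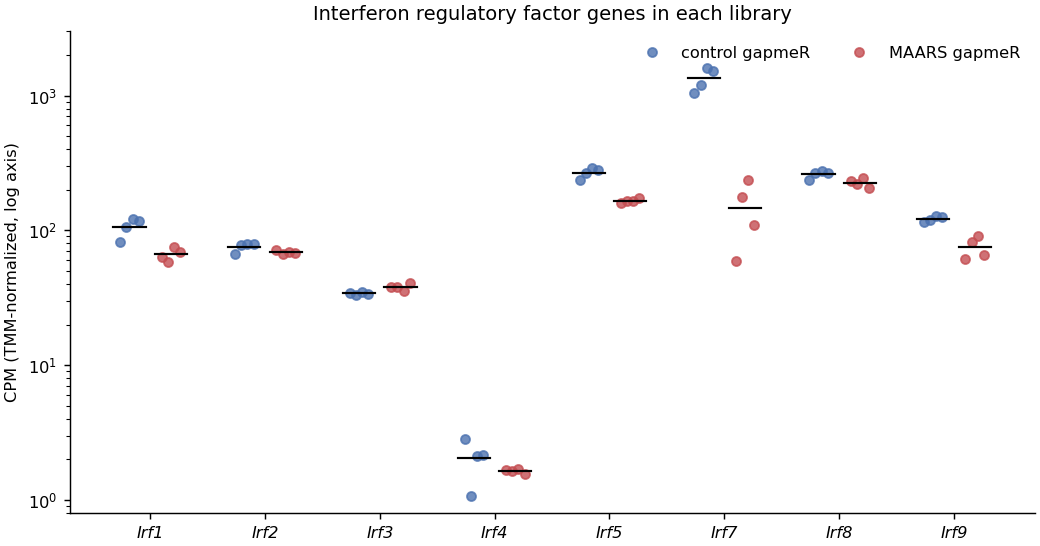
CPM (TMM-normalized, log axis) of the 8 interferon regulatory factor genes in each of the 4 control gapmeR (blue) and 4 MAARS gapmeR (red) libraries, with black lines at the group means. Irf7 ran from 1047 to 1603 CPM in the control and from 59.3 to 238 CPM in the MAARS group, while the points of Irf2, Irf4 and Irf8 overlapped.

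Irf7 (ENSMUSG00000025498, chr7:141262706-141266481, minus strand), the interferon-inducible factor that amplifies type I interferon production, had 20453, 23554, 29631 and 31040 counts in control replicates 2, 5, 6 and 7. It had 1254, 4438, 5172 and 2533 counts in MAARS replicates 9, 11, 13 and 15. Every MAARS gapmeR library lay far below every control library, and the lowest control value was 4.41 times the highest MAARS value in CPM. The level fell from 1344 ± 263 to 146 ± 77.8 CPM (SD, n = 4), a 9.21-fold decrease with a 95% interval of 5.44 to 15.6. This was a log2 fold change of -3.20 (SE 0.346, adjusted p = 3.05e-05, edgeR), and 46 genes of all those tested fell further. The MAARS gapmeR libraries also differed among themselves, with a ratio of 4.01 between the highest, replicate 13, and the lowest, replicate 9, and a coefficient of variation of 53.4% against 19.6% in the control.

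Irf9 (ENSMUSG00000002325, chr14:55603571-55610030, plus strand), the DNA-binding subunit of ISGF3, had 115, 119, 129 and 125 CPM in the control libraries and 61.5, 81.4, 90.0 and 66.0 CPM in the MAARS gapmeR libraries, in the same order of replicates. The groups did not overlap, and the MAARS gapmeR libraries stood in the order of their Irf7 values, with replicate 9 lowest and replicate 13 highest. The log2 fold change was -0.71 (SE 0.103, adjusted p = 0.00024, edgeR). Of its exonic bases, 2.28% also belong to Rnf31 on the same strand.

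Irf5 (ENSMUSG00000029771, chr6:29526625-29541871, plus strand), a driver of inflammatory cytokine genes in macrophages, had 236, 266, 289 and 281 CPM in the control libraries and 159, 164, 164 and 173 CPM in the MAARS gapmeR libraries, in the same order of replicates. The groups did not overlap, and the MAARS gapmeR libraries lay close together. The level fell by 0.70 on the log2 scale (SE 0.0615, adjusted p = 8.99e-06, edgeR), from 268 ± 23.2 to 165 ± 5.44 CPM (SD, n = 4). Of its exonic bases, 14.1% are shared with Tnpo3 on the opposite strand, and the strand setting of the counting is not given in the sources used here.

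Irf1 (ENSMUSG00000018899, chr11:53770014-53778374, plus strand), which activates antigen presentation and cell death genes, had 82.4, 106, 121 and 118 CPM in the control libraries and 63.4, 58.3, 74.8 and 69.3 CPM in the MAARS gapmeR libraries. The groups did not overlap, although control replicate 2 stood only 1.10 times above the highest MAARS value. The log2 fold change was -0.68 (SE 0.113, adjusted p = 0.00056, edgeR).

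Irf3 (ENSMUSG00000003184, chr7:44997648-45002848, plus strand), the constitutively expressed activator of the interferon-beta gene, had 34.1, 33.3, 34.9 and 33.9 CPM in the control libraries and 38.0, 37.8, 35.4 and 41.0 CPM in the MAARS gapmeR libraries. The groups came close at 34.9 and 35.4 CPM without overlap. The rise was 0.16 on the log2 scale (SE 0.0551, adjusted p = 0.0334, edgeR), and it no longer passed without a filter on low counts or when any library but MAARS replicate 13 was left out, with adjusted p between 0.0543 and 0.0875 in the latter 7 fits.

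Irf8 (ENSMUSG00000041515, chr8:120736358-120756694, plus strand), a factor of the monocyte and dendritic cell lineage, had 235, 268, 278 and 265 CPM in the control libraries and 234, 220, 247 and 205 CPM in the MAARS gapmeR libraries. The groups overlapped at control replicate 2. The level fell by 0.21 on the log2 scale (SE 0.067, adjusted p = 0.0242, edgeR), and the call was lost without control replicate 6, MAARS replicate 11 or MAARS replicate 15, with adjusted p of 0.0634, 0.064 and 0.0707, and with upper-quartile factors or library totals.

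Irf2 (ENSMUSG00000031627, chr8:46739732-46847458, plus strand), the factor that competes with Irf1, had 66.8, 77.6, 79.3 and 79.5 CPM in the control libraries and 71.1, 67.0, 69.2 and 67.5 CPM in the MAARS gapmeR libraries. Control replicate 2 was the lowest of all 8 libraries and the other 3 control libraries were the highest. The log2 fold change was -0.14 (SE 0.059, 95% interval -0.27 to -0.01, adjusted p = 0.0707, edgeR), and without control replicate 2 it was -0.19 with an adjusted p of 0.00645. With upper-quartile factors and library totals it was -0.08 in both, with adjusted p of 0.287 and 0.274.

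Irf4 (ENSMUSG00000021356, chr13:30749226-30766976, plus strand), known for its part in alternative macrophage activation, was the lowest member, with 55, 21, 39 and 44 counts in the control libraries and 35, 41, 37 and 36 counts in the MAARS gapmeR libraries. The control group spanned both sides of the MAARS group. The log2 fold change was -0.32 with a 95% interval of -0.88 to 0.25 (adjusted p = 0.337, edgeR), and without control replicate 5 it was -0.53 with an adjusted p of 0.0404. Without control replicate 2 it was -0.12 with an adjusted p of 0.742. At these counts a change of the size seen for Irf1, Irf5 or Irf9 lay inside the interval.

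An exact two-sided permutation test of log2 CPM over the 70 assignments of the 8 libraries gave p = 0.0286, the smallest this design allows, for Irf1, Irf3, Irf5, Irf7 and Irf9. The exact permutation p was 0.0571 for Irf8, 0.143 for Irf2 and 0.486 for Irf4.

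**Figure D2:**
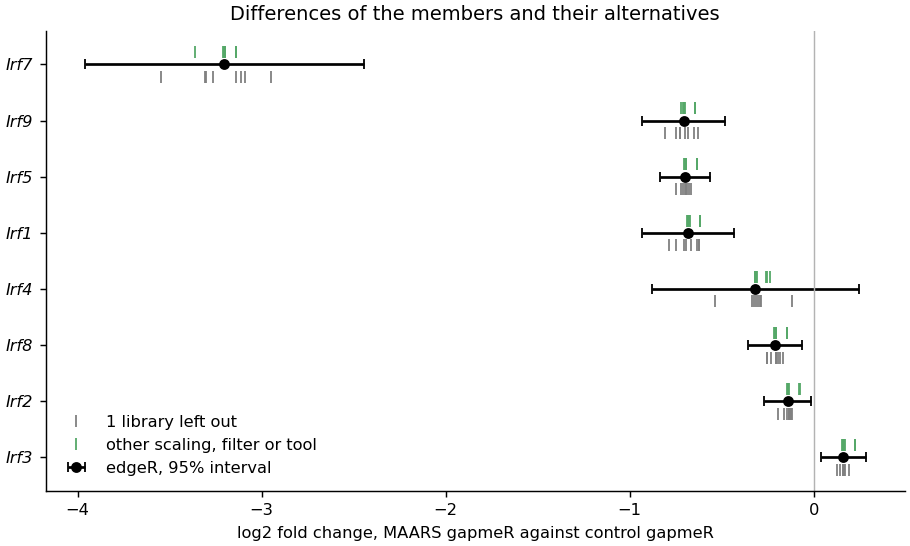
Log2 fold change of each member, MAARS gapmeR against control gapmeR, from edgeR (black points with 95% intervals), beside the values with another scaling, filter or tool (green ticks) and with each library left out (grey ticks). Irf7 stayed between -3.54 and -2.95 in all 15 alternatives, and Irf2, Irf3 and Irf8 lay near 0.

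Ratios between members within a library, which do not depend on the scaling of libraries, were compared for all 28 pairs. With 0.5 added to each count, 17 pairs differed between the groups (exact permutation p = 0.0286, adjusted p = 0.0471 over the 28 pairs). All 17 were at the smallest p this design allows and share the same adjusted p, so these calls stand or fall together. The share of all gene pairs that would separate in this way was not computed. Irf7 lost against each of the other 7 members, by 2.64 on the log2 scale against Irf9 and by 3.52 against Irf3. The drops of Irf1, Irf5 and Irf9 could not be told apart from each other. The log2 ratio of Irf1 to Irf5 was -1.52 to -1.25 in the control and -1.49 to -1.14 in the MAARS group, a difference of 0.02 (exact permutation, adjusted p = 0.914). That of Irf5 to Irf9 was 1.04 to 1.17 and 0.87 to 1.39, a difference of 0.03 (exact permutation, adjusted p = 0.892). These ranges also allow small differences, and the test does not show the ratios to be alike. Irf3 gained on Irf2 by 0.30 and on Irf1, Irf5 and Irf9 by 0.83 to 0.88. The log2 ratio of Irf2 to Irf1, the competing pair, was higher by 0.54 in the MAARS group.

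**Figure D3:**
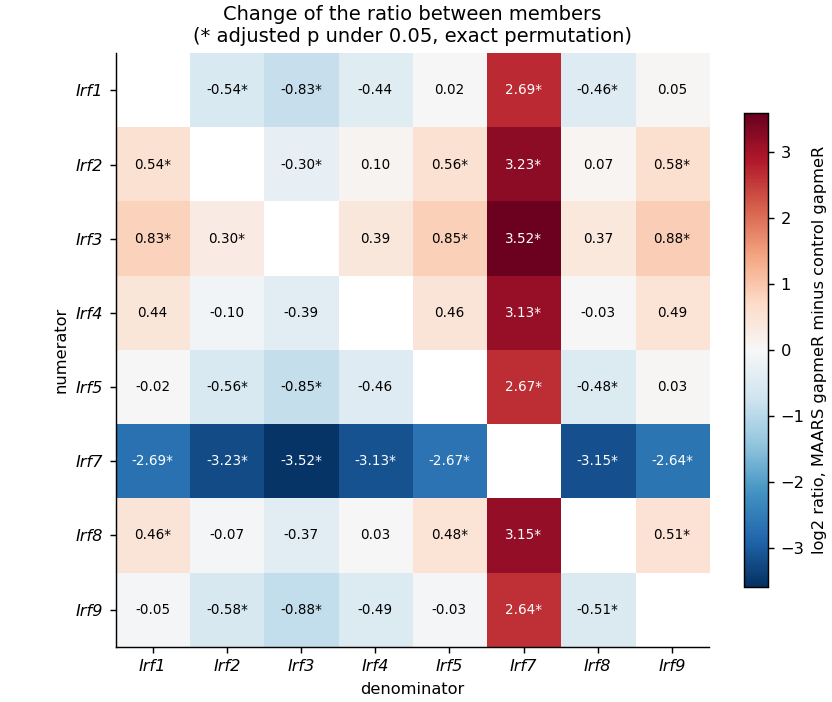
Difference between the groups in the mean log2 ratio of each row member to each column member (MAARS gapmeR minus control gapmeR), with asterisks at an adjusted p under 0.05. The Irf7 row and column hold all the large values, from 2.64 to 3.52 in size, and the cells between Irf1, Irf5 and Irf9 lie within 0.05 of 0.

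The order of the members by level was read from CPM per kilobase of merged exons. In the control group Irf7 stood first at 356 ± 69.8 CPM per kilobase (SD, n = 4), followed by Irf5 at 92.2 ± 8.0 and Irf8 at 37.1 ± 2.60. Irf1 at 26.8 ± 4.39 and Irf9 at 22.7 ± 1.11 overlapped each other, as did Irf2 at 10.2 ± 0.822 and Irf3 at 9.89 ± 0.20, and Irf4 came last at 0.416 ± 0.147. The 4 control libraries thus gave Irf7 61.1% to 66.4% of the summed level of the 8 genes. In the MAARS group Irf5 stood first at 56.8 ± 1.87 CPM per kilobase, and Irf7 at 38.6 ± 20.6 overlapped both Irf5 and Irf8 at 32.1 ± 2.56. Irf7 made up 10.3% of the sum in MAARS replicate 9 and 30.0% in replicate 13. Irf3 stood above Irf2, at 11.1 ± 0.658 and 9.29 ± 0.248 CPM per kilobase, and Irf3 overlapped Irf9 at 13.9 ± 2.46, which in turn overlapped Irf1 at 16.7 ± 1.80. The order in the MAARS group depended on the gene length used. The share of Irf7 also did, at 54.0% to 59.5% in the control and 7.64% to 23.6% in the MAARS group with the longest transcript. With the longest protein-coding transcript Irf8 ranked 1, Irf5 ranked 2 and Irf7 ranked 3, and Irf2 stood above Irf3 in both groups, at 30.4 against 16.8 CPM per kilobase in the control and 27.5 against 18.7 in the MAARS group.

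**Figure D4:**
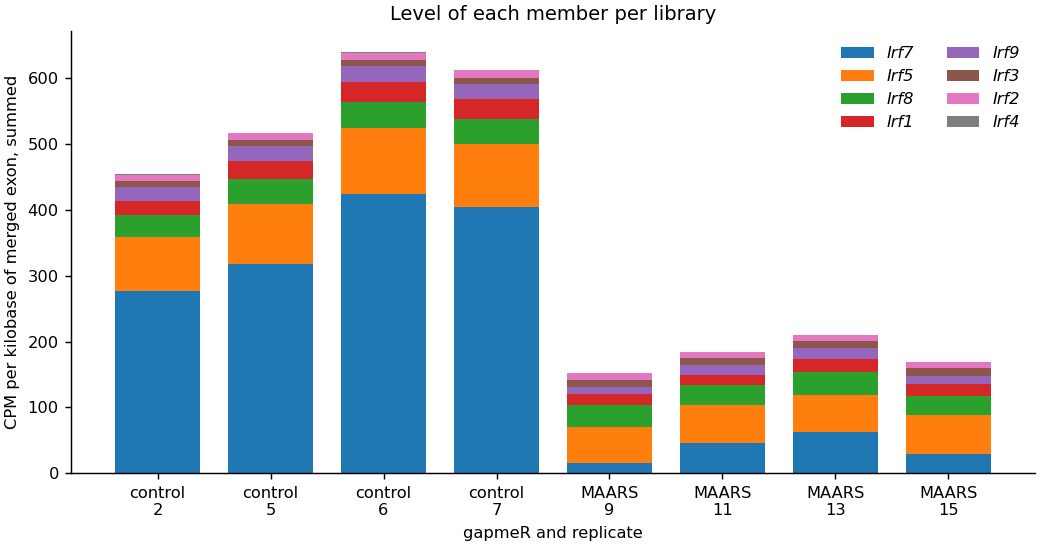
Summed CPM per kilobase of merged exon of the 8 members in each library, stacked by gene. Irf7 takes 61.1% to 66.4% of each control bar and 10.3% to 30.0% of each MAARS gapmeR bar.

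The genes around the members were read from lists in the same fit, and each count below stands against the 24.0% of all genes tested that fell and the 21.3% that rose. No interferon gene could be tested: of 21 type I, II and III interferon genes, 16 had 0 counts in all 8 libraries, and the 21 together had 0 to 4 counts in a library. A count of 0 allows up to 3 counts of a gene in a library, or 0.119 to 0.162 CPM, for counting error only. Of 19 genes for receptors, sensors, adaptors and kinases upstream of Irf3, Irf5 and Irf7, 14 (73.7%) fell, against 24.0% of all genes. Of the same 19, 0 rose, and the median log2 fold change was -0.37. The endosomal receptor Tlr3 fell by 1.51 on the log2 scale (SE 0.119, adjusted p = 5.87e-06, edgeR), the RNA sensor Ddx58 by 1.74 (SE 0.144) and the adaptor Myd88 by 0.87 (SE 0.0715). Of the kinases that phosphorylate Irf3 and Irf7, Ikbke fell from 141 ± 12.7 to 95.5 ± 5.06 CPM (SD, n = 4; log2 fold change -0.56, SE 0.066), and Tbk1 was at 114 ± 5.24 and 113 ± 3.54 CPM and did not pass the test. Irak1, Irak4, Ticam2 and Tmem173 did not pass either.

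Of 10 tested genes for proteins that bind DNA with a member or coactivate it, 6 (60%) fell and 1 (10%) rose, with a median of -0.34. Stat2, a partner of Irf9 in ISGF3, fell from 405 ± 50.9 to 142 ± 30.6 CPM (SD, n = 4; log2 fold change -1.52, SE 0.139). This was a larger log2 fold change than that of Irf9 itself, and the difference was not tested. Batf2, a partner of Irf1, fell by 1.37 (SE 0.194). Of 11 genes for proteins that restrain or degrade members or limit their synthesis, 5 (45.5%) rose, against 21.3% of all genes. Of the same 11, 4 (36.4%) fell, against 24.0%, and the median was 0.12. Foxo3, a known repressor of Irf7 transcription, rose by 0.63 on the log2 scale (SE 0.098, adjusted p = 0.000365, edgeR). The corepressor Irf2bp2 rose by 0.34 (SE 0.0525), a gene whose exons overlap an opposite-strand gene over 20.5% of their length, and the ubiquitin ligase Trim21 fell by 0.89 (SE 0.0772). Of 8 tested genes for interferon receptor chains and Janus kinases, 1 (12.5%) rose, against 21.3% of all genes. Of the same 8, 3 (37.5%) fell, against 24.0%, and the median was -0.11. With so few genes these shares are near those of all genes and are no result about the list. Ifnar1 rose by 0.29 (SE 0.0496), Jak2 fell by 0.42 (SE 0.083) and Ifngr2 by 0.22 (SE 0.0469).

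Genes known as targets were read by the member they are attributed to. All 12 listed targets of ISGF3 fell, with a median log2 fold change of -3.32, among them the antiviral genes Mx2 (-2.64, SE 0.181), Rsad2 (-3.35, SE 0.249) and Oasl1 (-3.54, SE 0.287). All 5 tested targets of Irf3 and Irf7 fell, with a median of -3.50, of which Isg15, Ifit1 and Ifit2 are also in the ISGF3 list. The chemokine gene Cxcl10 fell from 31.0 ± 11.1 to 1.23 ± 0.65 CPM (SD, n = 4). All 11 tested targets of Irf1 fell, with a median of -1.25, and the smallest p-values were those of the immunoproteasome subunit Psmb10 (-1.32, SE 0.0997), the peptide transporter Tap1 (-1.75, SE 0.139) and the guanylate-binding protein Gbp2 (-2.70, SE 0.221). Of 7 tested targets of Irf8, 4 fell and 1 rose, with a median of -0.50; Klf4 fell by 1.04 (SE 0.114), Pml by 0.61 (SE 0.0838) and Naip2 by 0.50 (SE 0.0607). One target each of Irf5 and Irf4 passed the filter, of which Tnf fell by 1.17 (SE 0.118) and Chil3 had a log2 fold change of -0.48 (SE 0.305) and did not pass the test. The lists were chosen with results of these data known, and many of their genes answer to more than one member.

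**Figure D5:**
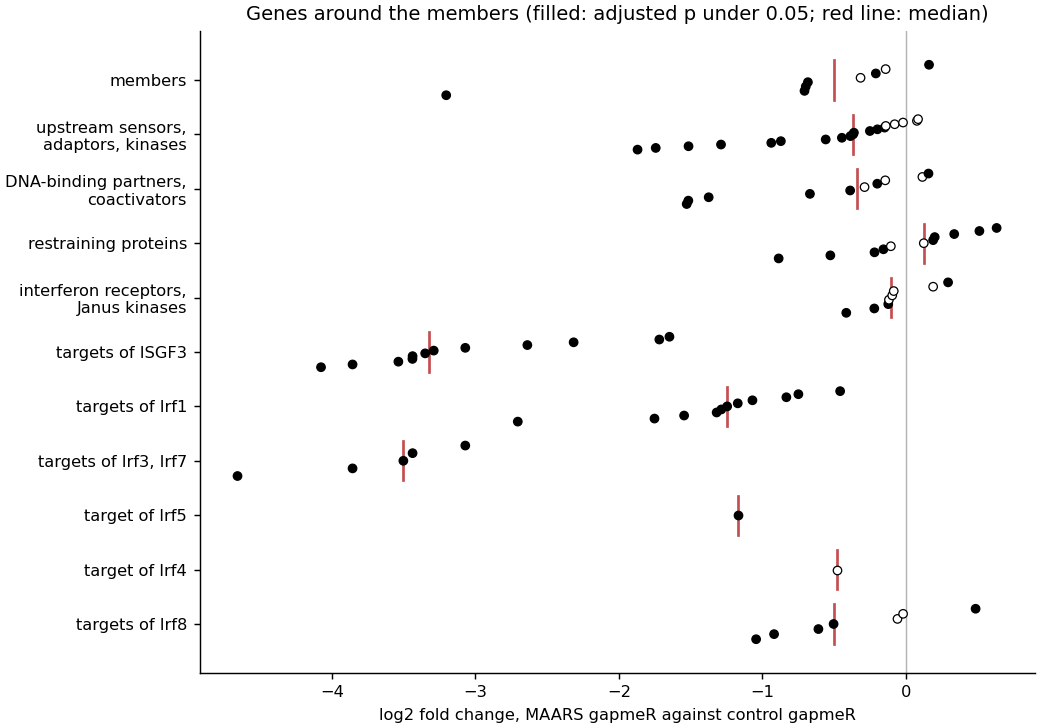
Log2 fold change (MAARS gapmeR against control gapmeR) of each tested gene in the lists around the members; filled points passed the test at an adjusted p under 0.05 and red lines are list medians. The medians are -3.32 for ISGF3 targets, -1.25 for Irf1 targets and 0.12 for genes of restraining proteins.

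The genes whose log2 CPM most resembled each member over the 8 libraries are given as a description, since the 2 groups set much of any such correlation. For Irf7 they were Oas3, Ifi204 and Ifi213, all interferon-inducible genes, with Pearson's r of 0.999 over 8 libraries. Irf9 was nearest to Gm4951 (r = 0.998), Usp18 (r = 0.994) and Psmb4 (r = 0.993), and Irf5 to Gbp10 (r = 0.999), Rac2 (r = 0.997) and Gbp8 (r = 0.996). Gbp10 passed the filter through the control group, with at most 1 count in a MAARS gapmeR library, so its r restates the split between the groups. Irf1 was nearest to Prdx5 (r = 0.995), C1qb (r = 0.995) and Cxcl16 (r = 0.992). Irf3 was nearest to Jdp2, Gnaq and Rbm47 (r = 0.982, 0.978 and 0.976), all of which rose. Irf8 was nearest to Ehd4, Lamtor5 and Xrn2 (r = 0.981, 0.975 and 0.974), Irf2 to Sbk1, Birc3 and Mat2b (r = 0.985, 0.963 and 0.960), and Irf4 to Gm14681, Osgepl1 and Cep57 (r = 0.946, 0.935 and 0.923). Irf4 was the member with the lowest nearest correlation, and 0 of its 3 nearest genes passed the test between the groups.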

How the data were processed

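RNA-Seq of 4 control gapmeR and 4 MAARS gapmeR BMDM libraries was used. The authors trimmed reads (Trimmomatic 0.36), aligned them with STAR 2.5.2b to mm10 (GRCm38) and obtained gene counts with featureCounts (Subread 1.5.2); the deposited values are raw counts. The strand setting and the treatment of reads that map to several places are not given in the sources used here. Genes passing filterByExpr (minimum count 10, minimum total 15) were compared with edgeR 4.0.16 (R 4.3.3; TMM factors, glmQLFTest, Benjamini-Hochberg adjustment over the 13051 genes tested, threshold 0.05). The procedure was also run on counts simulated from its own fitted model, with a much smaller share of genes changed than was called here. That run cannot show that the calls in these data are right, and its outcome is not reported here. The common dispersion corresponded to a biological coefficient of variation of 8.51%. Symbols, gene lengths and exon overlaps were taken from GENCODE M21 (GRCm38), in which 99.3% of the genes have a symbol, and promoters from RefSeq. The paper's methods name an Ensembl release for the transcripts, so the exons that were counted may differ from these. Libraries of a group differed by more than sampling noise (chi-square of 4.26 to 15.4 per gene). The first principal component, 65.0% of the variance, separated the groups.

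Alternatives were RLE factors, upper-quartile factors, library totals, DESeq2 1.42.0, limma-voom (limma 3.58.1), no filter, a filter at a mean count of 10, each library left out, 5 added to counts in ratios, and other gene lengths. The longest protein-coding transcript as length was added after the data had been seen. The members, lists and tests were chosen with earlier results of these data known. The genes named are the members, MAARS, for every list its 3 genes of smallest p, and the 3 most correlated with each member. Ikbke, Tbk1, Irak1, Irak4, Ticam2, Tmem173 and Ifit1 fall outside this rule and were named after their values had been seen. Some genes that the rule names are not reported here.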

Additional observations from a re-analysis of the deposited data

Results flagged for a closer look

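Among 118 groups of 4 values, those of the members and the other named genes in each group of libraries, 6 held a library far from the other 3 by Dixon's test, where chance gives about 5.9. One concerned a member: Irf2 was at 66.8 CPM in control replicate 2 and at 77.6 to 79.5 CPM in the other control libraries. Cxcl10 was at 2.21 CPM in MAARS replicate 13, the MAARS gapmeR library with the highest Irf7, and at 0.867 to 0.955 CPM in the other 3. Birc3, among the genes nearest to Irf2, was at 35.8 CPM in control replicate 2 and at 44.5 to 45.3 CPM in the other control libraries. Rbm47, among the genes nearest to Irf3, was at 76.0 CPM in control replicate 6 and at 71.3 to 71.9 CPM in the others. Cep57, among the genes nearest to Irf4, was at 24.1 CPM in control replicate 5 and at 28.5 to 29.1 CPM in the others. Birc3, Rbm47 and Cep57 were named because they follow a member over these same libraries. Their flags are therefore not independent of that member's values, and the 6 cannot be read as separate flags. Gbp10, nearest to Irf5, was at 0.0433 CPM in MAARS replicate 15, which is 1 count, and at 0 in the other 3 libraries; with such counts the ratio tested is fixed, so this one says nothing about the library and is no support for the count of 6.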

How the results depend on the processing

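Irf1, Irf5, Irf7, Irf9 and MAARS kept their direction and their call in all 15 alternatives. Irf3 lost its call without a filter (0.16, adjusted p = 0.103, edgeR) and ranged from 0.12 to 0.19 with a library left out, so the count of members that rose was 0 without a filter and 0 to 1 with a library left out. Irf8 lost its call with upper-quartile factors (-0.15, adjusted p = 0.0829, edgeR) and library totals (-0.15, adjusted p = 0.0694, edgeR) and ranged from -0.26 to -0.16 with a library left out. Irf2 ranged from -0.19 to -0.12 and Irf4 from -0.53 to -0.12 with a library left out. Each gained a call in 1 alternative, Irf2 without control replicate 2 and Irf4 without control replicate 5. Irf8 lost its call in 5 of the 15 alternatives, so the count of members that fell moved as well. The causes were not tested. Upper-quartile factors and library totals moved the median of all genes to 0.0707 and 0.0718, and the share of calls that were higher from 47% to 60.4% and 60.9%. Under both, the genes for 1 activator, 2 partners and 2 receptors or kinases rose and those for 2 restraining proteins fell. Osgepl1 (0.00237 and 0.00199) and Cep57 (0.0263 and 0.0264) changed sign under both, as did Osgepl1 without control replicate 2 (0.0152). Without a filter, 0 partners rose, 2 receptors or kinases rose and 3 targets of Irf5 fell. The listed targets of Irf5 other than Tnf had at most 5 counts in any library, so the added calls rest on counts near 0. With a library left out, the genes for 0 to 1 partners, 3 to 5 restraining proteins and 1 to 2 receptors or kinases rose. Those for 2 to 5 receptors or kinases fell. In the MAARS group Irf7 ranked 3 and Irf8 ranked 2 by level with the longest transcript; with the longest protein-coding transcript Irf8 ranked 1, Irf5 ranked 2, Irf7 ranked 3, Irf2 ranked 5, Irf9 ranked 6 and Irf3 ranked 7. Pair ratios gave 17 calls with 5 added. No paired analysis was possible because the groups share no replicate numbers.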
